A study of Mus musculus with 2 samples.

Results

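Potassium channel genes were taken as the genes whose symbol begins with *Kcn*, the root shared by the pore-forming subunits of potassium channels, their accessory subunits and a few noncoding RNAs named after them. The rule found 99 genes among all genes measured in nuclei of mouse gastrocnemius and plantaris (GP) muscle. Of these, 47 had at least 10 unique molecular identifiers (UMIs, each standing for 1 captured transcript) over both libraries in the nuclei kept after filtering, 36 had 1 to 9, and 16 had none. Over all deposited barcodes 49 had at least 10 and 15 had none. Single-nucleus RNA-Seq was performed on 2 libraries, 1 per condition, each from 3 GP muscles pooled before nuclei were isolated. Both came from B6C3F1-background mice aged 5 months, 3 months after tamoxifen, and both carried *Net39* fl/fl, an allele of the muscle nuclear envelope gene *Net39* in which loxP sites flank the first exon. The control library (Ctrl) lacked Cre, and the conditional knockout library (cKO) also carried HSACreERT2, a tamoxifen-inducible Cre driven by a skeletal actin promoter that is active in muscle fibers and not in satellite cells. Nuclei outside the fibers are therefore not those in which the deletion was induced, and the controls share the tamoxifen but not the Cre.

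Potassium channels set the resting potential of the muscle membrane and end each action potential. Inward rectifiers hold the fiber near the potassium equilibrium and take back the potassium that builds up in the transverse tubules. Voltage-gated channels repolarize the membrane, channels opened by calcium or sodium couple it to ion entry, and two-pore-domain channels carry background leak. Modifier and accessory subunits form no channel of their own but change the gating of pore subunits or their delivery to the surface. In muscle tissue, genes of these families are also used by vascular smooth muscle, endothelium, fibroblast-like cells and immune cells.

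The libraries kept 3526 Ctrl and 3595 cKO nuclei with medians of 2039.5 and 1612 UMIs, and 5 barcodes occurred in both. With 1 library per condition there is no replicate error, so no test between conditions was possible. Levels are UMIs of a gene per 1000000 UMIs of a library and class (CPM) with exact Poisson 95% intervals, and ratios carry exact conditional 95% intervals, given in parentheses. Both cover counting error only, and UMIs of a single nucleus are not independent. A difference was called where it reached 2-fold with at least 50 UMIs between libraries, or 2-fold in both libraries between classes of nuclei, and each first count of called members stands beside the percentage of all genes called by the same rule. *Net39* itself, listed as *Plpp7*, had 52.3 CPM in Ctrl and 41.9 in cKO myonuclei, but 3′ reads lie mostly outside the deleted first exon, so this does not check the deletion. *Malat1* took 25.5% of Ctrl and 30.7% of cKO UMIs.

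Myonuclei numbered 2880 in Ctrl and 3215 in cKO. They were assigned by their dominant myosin heavy chain gene, taken where it made up 60% or more of 3 or more UMIs of *Myh7* (type I), *Myh2* (IIa), *Myh1* (IIx) and *Myh4* (IIb). The mix of classes differed between libraries. *Myh7*-dominant nuclei numbered 19 and 275, *Myh2*-dominant 164 and 319, *Myh1*-dominant 299 and 379, and *Myh4*-dominant 1842 and 1382 in Ctrl and cKO. Clusters named from fixed marker genes gave 37 and 39 neuromuscular junction-like nuclei, 108 and 101 myotendinous junction-like nuclei, 291 and 139 nuclei like fibro-adipogenic progenitors (FAPs), 88 and 46 endothelial-like nuclei and 35 and 17 smooth muscle or pericyte-like nuclei. No measured marker of these 5 lists was at 0 in its own class, and the marker lists of FAPs, endothelium and smooth muscle or pericytes summed to 65.5, 57.2 and 10.4 CPM in Ctrl and 37.0, 48.9 and 9.54 CPM in cKO myonuclei outside the junctions. RNA of muscle fibers was present in each of the 3 classes outside the fibers. Titin (*Ttn*) stood at 40.5% and 42.1% of its myonuclear level in FAP-like nuclei of Ctrl and cKO, at 63.2% and 71.9% in endothelial-like nuclei and at 66.9% and 53.2% in smooth muscle or pericyte-like nuclei. Over *Ttn* and the fiber genes *Myh4* and *Mylk4* the percentages ran from 34.0% to 45.1% in FAP-like, 62.0% to 97.6% in endothelial-like and 53.2% to 97.0% in smooth muscle or pericyte-like nuclei. A member outside the fibers at or below the highest of these percentages of its myonuclear level is not distinguished from that background.

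Members contributed 79997 UMIs, 0.494% of all UMIs, and these were spread unevenly. *Kcnma1* held 51.8% and *Kcnq5* 20.2%. By role, the 8 calcium- or sodium-activated pore subunits held 55.9% of member UMIs, the 30 voltage-gated pore subunits 25.8%, the 15 inward rectifiers 1.97%, the 16 accessory subunits 1.04%, the 14 two-pore-domain subunits 0.810% and the 10 modifier subunits 0.311%. The noncoding RNAs, 5 in number, held 14.1%, nearly all of it *Kcnq1ot1*. These are counts of captured molecules, and capture was not compared between genes, so they do not rank the genes by expression.

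**Figure D1:**
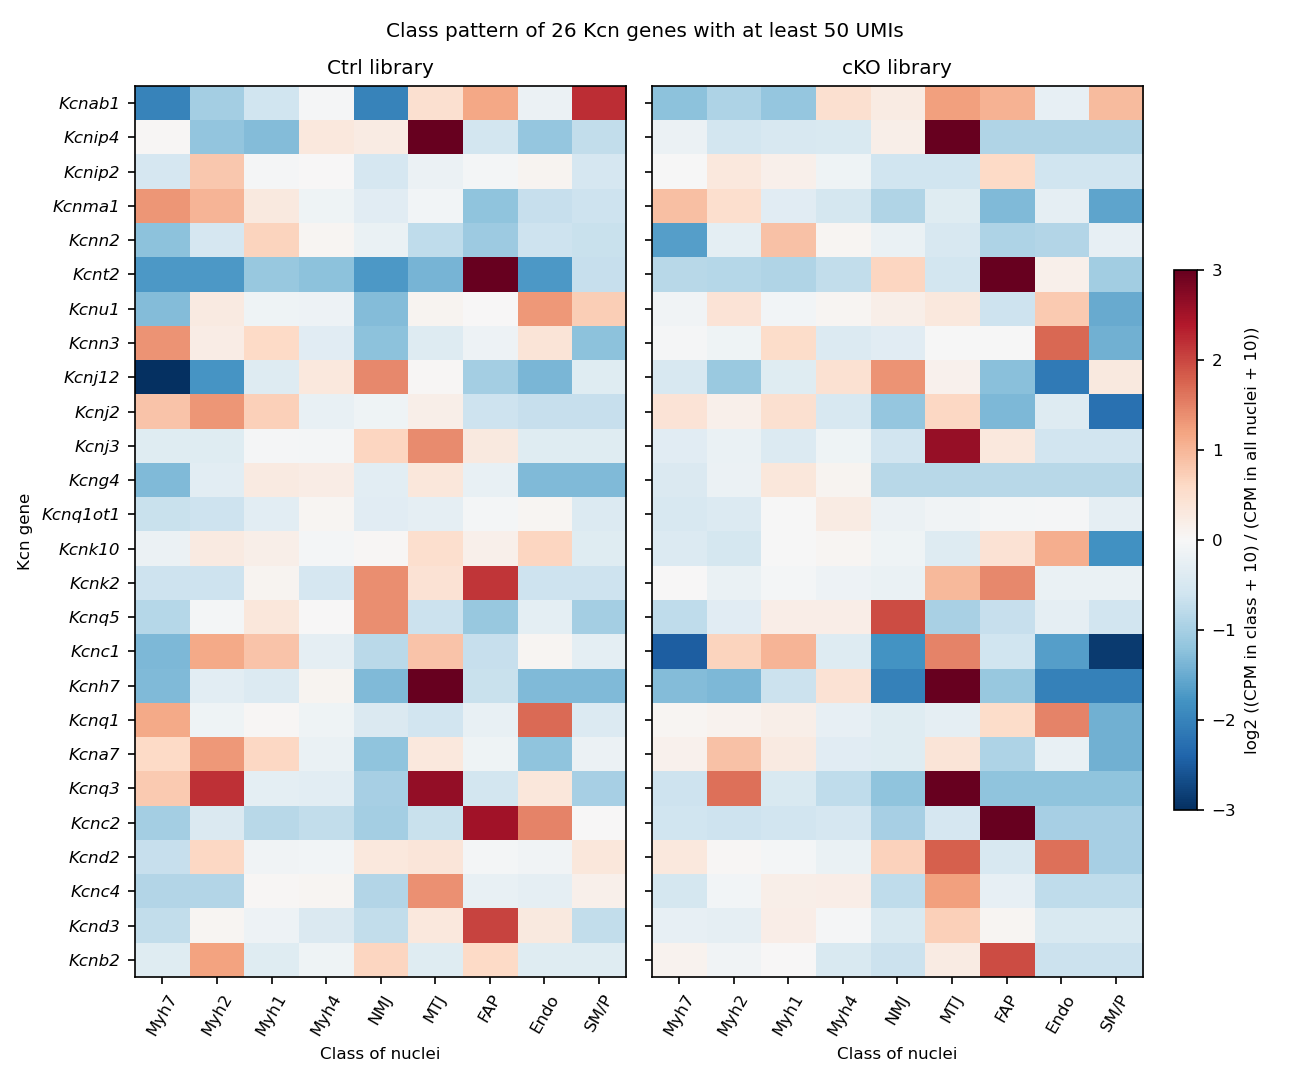
Color map of 26 of the 29 *Kcn* genes with at least 50 UMIs (rows) in 9 classes of nuclei (columns; Myh7 to Myh4 are the myosin-dominant classes, NMJ and MTJ the neuromuscular and myotendinous junctions, Endo the endothelial and SM/P the smooth muscle or pericyte class), with Ctrl in the left and cKO in the right panel. Color is the log2 ratio of CPM in the class plus 10 to CPM in all nuclei of that library plus 10, with the scale ending at 3 in either direction; *Kcnh7*, *Kcnip4* and *Kcnq3* stand out in MTJ and *Kcnt2* and *Kcnc2* in FAP in both libraries.

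Between fiber types, 0 of 12 members with at least 10 UMIs were at least 2-fold higher in *Myh7*-dominant than in other myonuclei in both libraries (all genes 3.87%), 2 of 18 in *Myh2*-dominant nuclei (*Kcnq3* and *Kcna7*; 3.43%), 1 of 20 in *Myh1*-dominant nuclei (*Kcnn3*; 0.818%) and 3 of 34 in *Myh4*-dominant nuclei (*Kcnab1* and *Kcnf1* among them; 2.41%). *Kcnma1* came nearest in *Myh7*-dominant nuclei, 2.43 times the other myonuclei in Ctrl and 1.98 times in cKO. At least 2-fold lower, where at least 10 UMIs were expected from the level outside the class, were 4 of 15 members in *Myh7*-dominant nuclei (*Kcnc1*, *Kcnn2*, *Kcnab1* and *Kcnh7*; all genes 5.48%), 4 of 18 in *Myh2*-dominant nuclei (*Kcnj12*, *Kcnab1* and *Kcnip4* among them; 5.57%), 1 of 22 in *Myh1*-dominant nuclei (*Kcnip4*; 1.95%) and 6 of 38 in *Myh4*-dominant nuclei (*Kcnj2*, *Kcna7*, *Kcnq3*, *Kcnb2*, *Kcnj13* and *Kcnk2*; 5.34%). Of these, *Kcnk2*, *Kcnb2* and *Kcnj13* had only 19, 46 and 11 myonuclear UMIs.

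Some of the lower calls rest on few nuclei. In the 19 Ctrl *Myh7*-dominant nuclei the level outside the class gave 8.31 expected UMIs of *Kcnn2*, 3.39 of *Kcnc1*, 0.995 of *Kcnab1* and 0.678 of *Kcnh7*, so the 0 UMIs of the last 2 genes there cannot show a lower level, and their calls rest on cKO alone. Without junctional nuclei the lower calls of *Kcnh7* in *Myh7*-dominant, *Kcnip4* in *Myh2*- and *Myh1*-dominant and *Kcnk2* and *Kcnj13* in *Myh4*-dominant nuclei were lost. *Kcnh7* then had 5.03 CPM (3 UMIs) in cKO *Myh7*-dominant nuclei against 3.34 in the other cKO myonuclei. *Kcnip4* had 4.07 against 4.56 CPM in Ctrl and 3.54 against 4.04 in cKO for *Myh1*-dominant and other myonuclei, so no fiber-type pattern of *Kcnh7* or *Kcnip4* can be read from these calls.

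*Kcnma1* encodes the pore of the large-conductance BK channel, opened jointly by calcium and depolarization (chromosome 14, 23289431 to 24014491, minus strand, mm10). Its level followed fiber type. It was 5559.7 CPM in Ctrl against 5625 in cKO *Myh7*-dominant nuclei, 4442 against 4289.6 in *Myh2*-dominant, 2702 against 2374 in *Myh1*-dominant, and 1999 against 2067 in *Myh4*-dominant nuclei. The order from type I to type IIb was the same in both libraries, and within each library the counting intervals of the 4 classes did not overlap. Over all myonuclei *Kcnma1* had 2303 CPM in Ctrl (interval 2269 to 2338) and 3101 in cKO (interval 3058 to 3143), a ratio of 1.35 (1.32 to 1.37). Inside the classes the cKO to Ctrl ratio of *Kcnma1* lay nearer 1, at 1.01 in *Myh7*-dominant, 0.966 in *Myh2*-dominant, 0.879 (0.827 to 0.934) in *Myh1*-dominant and 1.03 (1.00 to 1.07) in *Myh4*-dominant nuclei. With the 4 myosin classes mixed alike in both libraries the ratio was 0.995 (0.967 to 1.02), an approximate counting interval. Nuclei left undetermined for lack of myosin UMIs differed, with *Kcnma1* at 2312 CPM in Ctrl against 4064 in cKO. In FAP-like nuclei *Kcnma1* stood at 0.416 of the level of other Ctrl nuclei and 0.392 of that of other cKO nuclei, near the percentages of *Ttn*.

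*Kcnn2* encodes SK2, an apamin-sensitive channel of small conductance that is activated by calcium. Among the myosin classes it was highest in *Myh1*-dominant nuclei, with 303 CPM in Ctrl (266 to 344) against 200.2 in cKO (172 to 232). *Kcnn2* had 196 against 109 CPM in *Myh4*-dominant, 129 against 84.1 in *Myh2*-dominant and 74.1 (3 UMIs) against 26.3 in *Myh7*-dominant nuclei. The cKO value was the lower one in each of the 4 classes. Over all myonuclei *Kcnn2* had 205 CPM in Ctrl against 108 in cKO, a ratio of 0.528 (0.483 to 0.578), which stops short of 2-fold, and the ratio with the classes mixed alike was 0.581 (0.524 to 0.645).

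*Kcnn3*, which encodes the related SK3 channel, was called higher in *Myh1*-dominant nuclei, with 25.3 CPM in Ctrl against 29.6 in cKO, 2.17 (1.26 to 3.59) times and 2.07 (1.28 to 3.25) times the other myonuclei. Its library ratio over all myonuclei was 1.25 (0.941 to 1.66), an interval that includes 1. *Kcnu1*, which encodes Slo3, the BK relative of sperm, had 13.7 CPM in Ctrl against 18.9 in cKO myonuclei, a ratio of 1.37 (1.05 to 1.80).

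Among the inward rectifiers, *Kcnj12* and *Kcnj2* encode Kir2.2 and Kir2.1, which carry resting potassium conductance in muscle fibers. The 2 genes had opposite fiber-type patterns. *Kcnj12* was high in *Myh4*-dominant nuclei, with 105 CPM in Ctrl (96.4 to 114) against 50.1 in cKO (42.2 to 59.0), intermediate in *Myh1*-dominant nuclei, with 60.8 against 23.9, and low in *Myh2*-dominant nuclei, with 17.4 against 10.3. *Kcnj2* was lowest in *Myh4*-dominant nuclei, with 18.0 CPM in Ctrl (14.5 to 22.0) against 24.0 in cKO (18.7 to 30.4). It had 44.3 against 55.7 CPM in *Myh1*-dominant, 72.1 against 42.8 in *Myh2*-dominant and 49.4 (2 UMIs) against 52.6 in *Myh7*-dominant nuclei. Over all myonuclei the *Kcnj2* ratio was 1.53 (1.26 to 1.85), and with the classes mixed alike it was 1.10 (0.853 to 1.42).

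*Kcnj12* was lower in cKO in every fiber class with enough UMIs to compare. Over all myonuclei it had 88.9 CPM in Ctrl (82.3 to 95.9, 673 UMIs) against 34.3 in cKO (30.0 to 39.1, 227 UMIs), a ratio of 0.386 (0.330 to 0.449). The *Kcnj12* ratio was 0.477 (0.394 to 0.574) within *Myh4*-dominant nuclei and 0.393 (0.223 to 0.669) within *Myh1*-dominant nuclei. Its cKO level was also the lower one at the neuromuscular junction (242 against 101 CPM), at the myotendinous junction (86.0 against 37.9 CPM) and in nuclei of undetermined myosin (72.1 against 26.3 CPM). In *Myh7*-dominant nuclei *Kcnj12* had 0 UMIs in Ctrl, where the interval reached 91.2 CPM, against 21.4 CPM in cKO, so no difference can be read there. With the classes mixed alike the ratio was 0.487 (0.412 to 0.575).

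*Kcnj11* and *Kcnj8* encode the pores of ATP-sensitive potassium channels and had 2 and 6 UMIs. Both UMIs of *Kcnj11* were in myonuclei, and 5 of the 6 of *Kcnj8*, a common marker of pericytes, were in the smooth muscle or pericyte-like class.

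**Figure D2:**
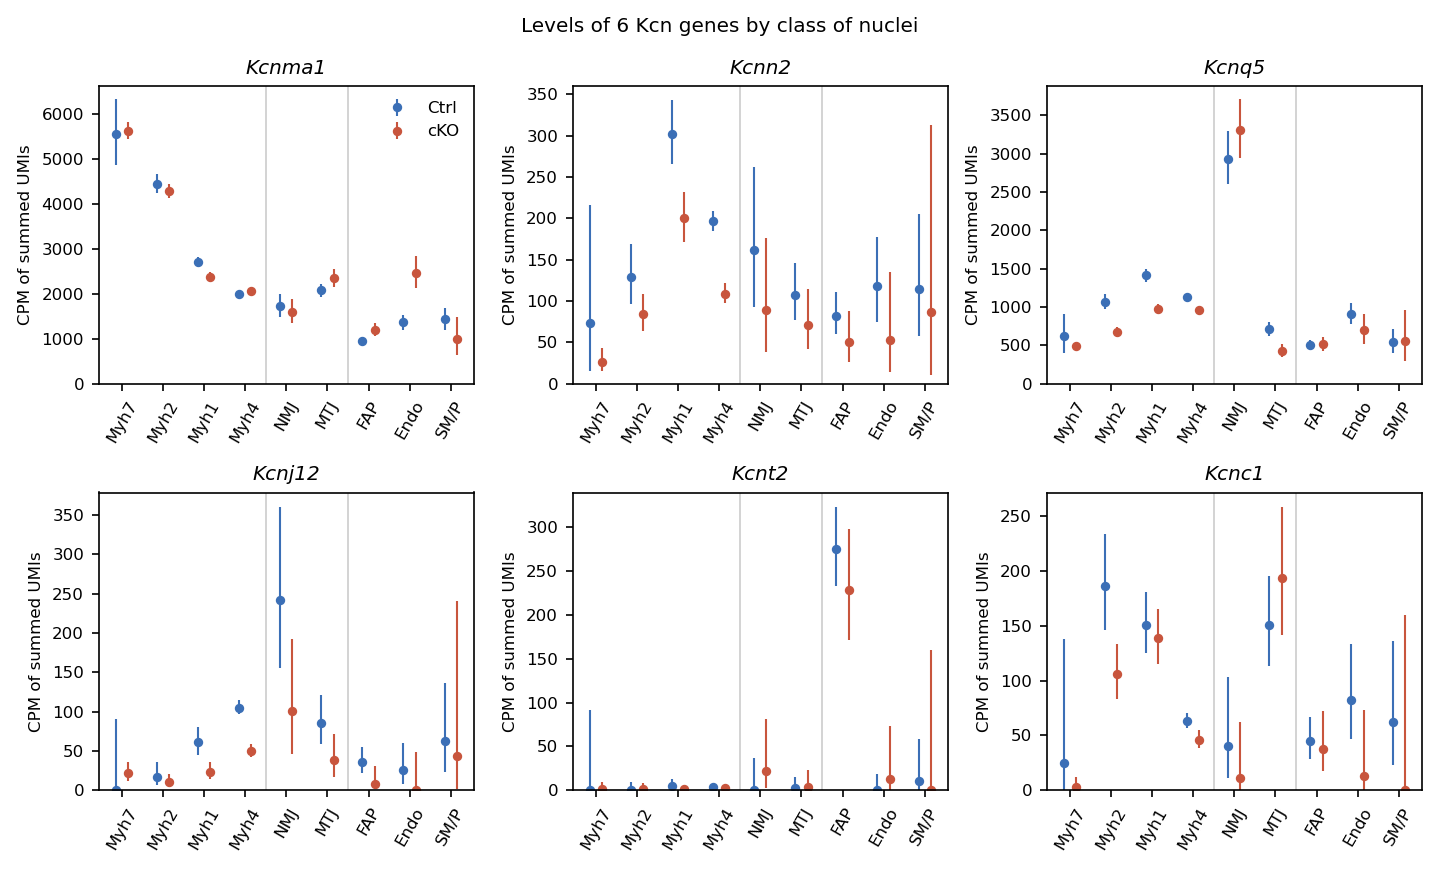
CPM of 6 *Kcn* genes (vertical axes, each from 0) in 9 classes of nuclei (horizontal axes; NMJ, MTJ, FAP, Endo and SM/P follow the 4 myosin classes), blue for the Ctrl and red for the cKO library. Points are summed UMIs per 1000000 and bars are exact Poisson 95% intervals; *Kcnma1* descends from Myh7 to Myh4 in both libraries, *Kcnq5* peaks at the NMJ, *Kcnt2* in FAP, and *Kcnn2* is lower in cKO in each of the 4 myosin classes.

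The KCNQ genes encode slowly activating channels that open near the resting potential. *Kcnq5* had 1413 CPM in Ctrl (1332 to 1499) against 974 in cKO (909 to 1041) *Myh1*-dominant nuclei, 1135 against 967 in *Myh4*-dominant, 1068 against 671 in *Myh2*-dominant and 618 against 492 in *Myh7*-dominant nuclei. Type I nuclei were the lowest of the 4 in each library, and over all myonuclei the library ratio was 0.728 (0.704 to 0.753).

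*Kcnq3*, whose product pairs with that of *Kcnq5*, was highest in IIa nuclei among the myosin classes. It had 82.0 CPM in Ctrl against 62.0 in cKO *Myh2*-dominant nuclei, 11.3 (7.07 to 17.8) times and 7.51 (4.85 to 11.6) times the other myonuclei, and 6.18 against 3.48 CPM in *Myh4*-dominant nuclei. In cKO only 21 of the 42 *Kcnq3* UMIs of *Myh2*-dominant nuclei lay outside junctional nuclei, against 33 of 33 in Ctrl. Without the junctional nuclei *Kcnq3* had 85.8 CPM in Ctrl against 31.9 in cKO *Myh2*-dominant nuclei, a ratio of 0.372 (0.205 to 0.663), and was the only 1 of 8 members called lower there (all genes 3.65%). The other myonuclei then had 1.34 CPM in Ctrl and 3.73 in cKO, against 7.26 and 8.25 with junctional nuclei included. In Ctrl 1 of these *Myh2*-dominant nuclei held 13 of the 33 UMIs, and in cKO 1 held 5 of the 21. Without the leading Ctrl nucleus alone *Kcnq3* had 52.4 CPM in Ctrl, a ratio of 0.609 (0.314 to 1.18), from 41 UMIs in all. Without the leading nucleus of each library it had 52.4 against 24.5 CPM. That ratio, 0.467 (0.226 to 0.949), was past 2-fold but came from 36 UMIs. Both settings leave too few UMIs for a call.

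The *Kcnc* genes encode fast delayed rectifiers of the Kv3 family. *Kcnc1* was concentrated in IIa and IIx nuclei, with 186 CPM in Ctrl (147 to 234) against 106 in cKO (83.1 to 134) *Myh2*-dominant nuclei and 151 against 139 in *Myh1*-dominant nuclei. *Myh4*-dominant nuclei had 63.1 against 46.3 CPM of *Kcnc1*, and *Myh7*-dominant nuclei had 24.7 (1 UMI) against 3.29 (2 UMIs), or 0.295 and 0.0459 of the other myonuclei. Its library ratio was 0.570 (0.407 to 0.799) in *Myh2*-dominant and 0.921 in *Myh1*-dominant nuclei. At the myotendinous junction *Kcnc1* had 151 CPM in Ctrl (114 to 195) against 194 in cKO (142 to 259), intervals that overlap those of the IIx nuclei.

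*Kcna7* encodes Kv1.7, a shaker-type channel of heart and skeletal muscle. It was higher in *Myh2*-dominant nuclei, with 47.2 CPM in Ctrl against 39.8 in cKO, 3.80 (2.19 to 6.29) times and 2.52 (1.58 to 3.90) times the other myonuclei, and lower in *Myh4*-dominant nuclei, with 10.0 against 11.5 CPM. Within *Myh4*-dominant nuclei its library ratio was 1.14 (0.716 to 1.80). *Kcnd2* and *Kcnd3* encode channels of the transient outward current. *Kcnd2* had 6.61 CPM in Ctrl against 9.97 in cKO myonuclei, a ratio of 1.51 (1.03 to 2.22), and *Kcnd3* 3.30 against 3.78, a ratio of 1.14 (0.630 to 2.07).

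*Kcng4* encodes Kv6.4, a modifier subunit that is silent alone and assembles with pore subunits. It was called lower in cKO over all myonuclei, with 16.4 CPM in Ctrl (13.6 to 19.5) against 8.01 in cKO, a ratio of 0.489 (0.347 to 0.679). *Kcng4* had a ratio of 0.478 (0.298 to 0.743) within *Myh4*-dominant nuclei and of 0.521 (0.365 to 0.744) with the classes mixed alike.

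Among accessory subunits, *Kcnab1*, a beta subunit of shaker-type channels, had 29.5 CPM in Ctrl against 28.2 in cKO *Myh4*-dominant nuclei, 2.20 (1.50 to 3.33) times and 3.91 (2.50 to 6.28) times the other myonuclei, and 0 UMIs against 1 UMI in *Myh7*-dominant nuclei. Over all myonuclei its library ratio was 0.667 (0.521 to 0.851), and within *Myh4*-dominant nuclei 0.954. *Kcnip2*, which encodes a calcium-binding partner of the transient-current channels, had 4.49 CPM in Ctrl against 4.99 in cKO myonuclei. *Kcnk10*, which encodes the leak channel TREK-2, had 28.1 CPM in Ctrl against 23.3 in cKO, a ratio of 0.827 (0.667 to 1.02).

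Taking the 25 members with at least 50 myonuclear UMIs together, 4 of 25 (16.0%) were at least 2-fold lower in cKO over all myonuclei, *Kcnj12*, *Kcnip4* and *Kcng4* among them, against 2.93% of the 9168 genes with as many UMIs. None of the 25 was at least 2-fold higher, against 3.27% of genes, and *Kcnh7* came nearest with 1.96 (1.57 to 2.46). With every nucleus weighted equally *Kcnj12* alone stayed past 2-fold, at a log2 ratio of -1.20, with *Kcng4* at -0.91. The median log2 ratio was -0.00 for the members and -0.08 for all genes, and 12 members were above 0 and 13 below. Within *Myh4*-dominant nuclei 3 of 20 members were lower (*Kcnj12*, *Kcng4* and *Kcnip4*; all genes 2.42%), and 1 of 20 was higher (*Kcnh7*; 1.76%). Within *Myh1*-dominant nuclei 1 of 8 members was lower (*Kcnj12*; 2.63%) and none higher (2.55%). In *Myh2*-dominant nuclei 0 of 8 members were called in either direction, where 3.14% of genes were lower and 1.74% higher, although all 8 ratios lay below 1, with a median log2 ratio of -0.56 against -0.14 for all genes. In *Myh7*-dominant nuclei 3 members had enough UMIs and 0 were called, where 9.36% of genes were lower and 12.7% higher.

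In nuclei of undetermined myosin 3 of 10 members were lower (*Kcnj12* and *Kcnn2* among them; all genes 6.72%) and none higher (4.68%). Over myonuclei outside both junctions 2 of 23 members were lower (*Kcnj12* among them; all genes 3.01%) and none higher (3.39%), and *Kcng4* and *Kcnh7* had ratios of 0.520 and 0.827 (0.455 to 1.48). In *Myh4*-dominant nuclei outside the junctions 1 of 18 was lower, again *Kcnj12* (all genes 2.51%), with a ratio of 0.478 (0.392 to 0.580).

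Mixing the classes alike, at 6.25% *Myh7*-, 10.3% *Myh2*-, 14.5% *Myh1*- and 69.0% *Myh4*-dominant nuclei, the average of both libraries, moved several members toward a log2 ratio of 0. *Kcnma1* went from 0.43 to -0.01, *Kcnj2* from 0.61 to 0.14, *Kcna7* from 0.36 to -0.04 and *Kcnab1* from -0.58 to -0.23. *Kcnj12* (-1.37 to -1.04), *Kcng4* (-1.03 to -0.94) and *Kcnn2* (-0.92 to -0.78) kept intervals below 0. *Kcnip4*, of whose 179 Ctrl UMIs 1 nucleus held 113, went from -1.36 to -2.68. *Kcnq3* changed sign, from 0.29 to -0.59, and *Kcnh7* passed 2-fold, with 1.33.

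**Figure D3:**
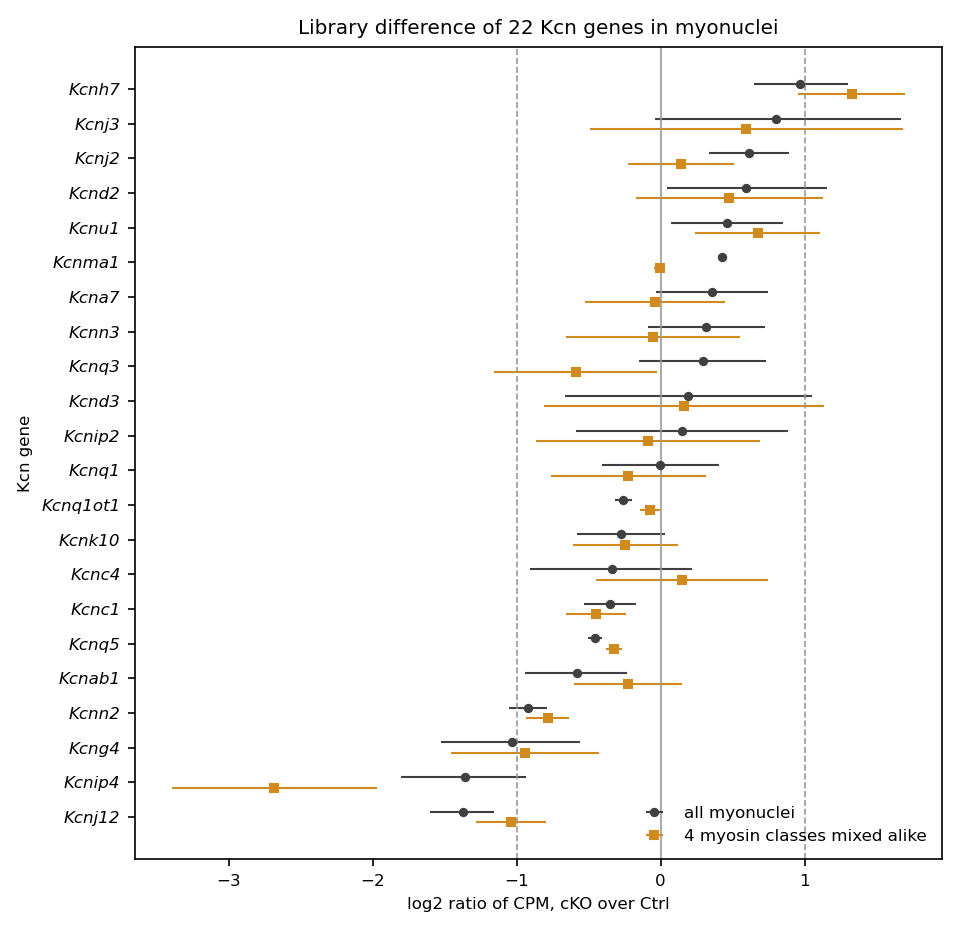
Log2 ratio of CPM in cKO over Ctrl (horizontal axis) for 22 of the 25 *Kcn* genes with at least 50 UMIs in myonuclei (vertical axis). Black points are all myonuclei with exact conditional 95% intervals, orange squares the ratio with the 4 myosin classes mixed alike with approximate counting intervals, and dashed lines mark 2-fold; *Kcnma1* moves from 0.43 to -0.01 and *Kcnj12* from -1.37 to -1.04.

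At the myotendinous junction, where fibers attach to tendon, 5 of 19 members (26.3%) were at least 2-fold above all other nuclei in both libraries, against 4.13% of genes. They were *Kcnh7*, *Kcnip4*, *Kcnq3*, *Kcnj3* and *Kcnc4*. *Kcnt2*, called higher in FAP-like nuclei below, was the 1 of 13 called lower (4.46%), a call that was lost in nuclei of 1000 UMIs or more. *Kcnh7*, which encodes Kv11.3, an ether-a-go-go-related channel known from neurons (chromosome 2, 62693414 to 63184287, minus strand, mm10), had the largest contrast of the 5. It had 258 CPM in Ctrl (209 to 315) against 818 in cKO (707 to 941) junction nuclei, 58.4 (39.7 to 87.4) times and 198 (133 to 303) times the other nuclei. These UMIs came from 18 of 108 Ctrl and 23 of 101 cKO nuclei. The nucleus with most *Kcnh7* held 15 of 96 UMIs in Ctrl and 56 of 194 in cKO, and without it *Kcnh7* had 222 CPM in Ctrl against 591 in cKO.

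*Kcnq3* had 116 CPM in Ctrl (83.6 to 156) against 207 in cKO (153 to 273) myotendinous junction nuclei, 21.1 (13.6 to 32.7) times and 32.2 (21.0 to 49.3) times the other nuclei. It was found in 16 nuclei of each library, 4 of which in each also held *Kcnh7*. *Kcnj3*, which encodes the G protein-gated rectifier Kir3.1, had 24.2 CPM in Ctrl (9 UMIs) against 80.1 in cKO (19 UMIs). *Kcnc4*, another Kv3 gene, had 37.6 (14 UMIs) against 29.5 (7 UMIs).

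*Kcnip4*, which encodes another calcium-binding partner of the transient-current channels, rested on few nuclei. It had 387 CPM in Ctrl against 148 in cKO, from 6 of 108 and 3 of 101 junction nuclei. In Ctrl 113 of its 144 UMIs lay in 1 nucleus and in cKO 26 of 35, and without these nuclei *Kcnip4* had 84.5 CPM in Ctrl (57.4 to 119.9) against 38.1 in cKO (17.4 to 72.3). With every nucleus weighted equally, its log2 ratio over all myonuclei turned from -1.36 to 0.13. *Kcnip4* was also found in 7 of 55 Ctrl and 3 of 10 cKO tenocyte-like nuclei, so it was not particular to this junction. Those are 12.7% and 30%, against 5.56% and 2.97% of junction nuclei, and 1 Ctrl tenocyte-like nucleus held 13 UMIs.

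Between libraries, *Kcnh7* was the 1 of 8 members called higher in cKO within the myotendinous junction class, with a ratio of 3.17 (2.47 to 4.09) (all genes 2.06%), and *Kcnip4* the 1 called lower (2.98%). The differences of both in *Myh4*-dominant nuclei lay in junctional nuclei. With these included, *Kcnh7* had 16.6 CPM in Ctrl against 45.2 in cKO, a ratio of 2.72 (2.06 to 3.62), and *Kcnip4* had 32.0 against 3.83, a ratio of 0.119 (0.0585 to 0.219). Without them *Kcnh7* had 4.70 against 3.32 CPM and *Kcnip4* had 4.50 against 3.68 CPM, with ratios of 0.705 (0.287 to 1.58) and 0.819 (0.346 to 1.80). The 5 myotendinous markers summed to 1941 CPM in the Ctrl and 1985 in the cKO class.

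**Figure D4:**
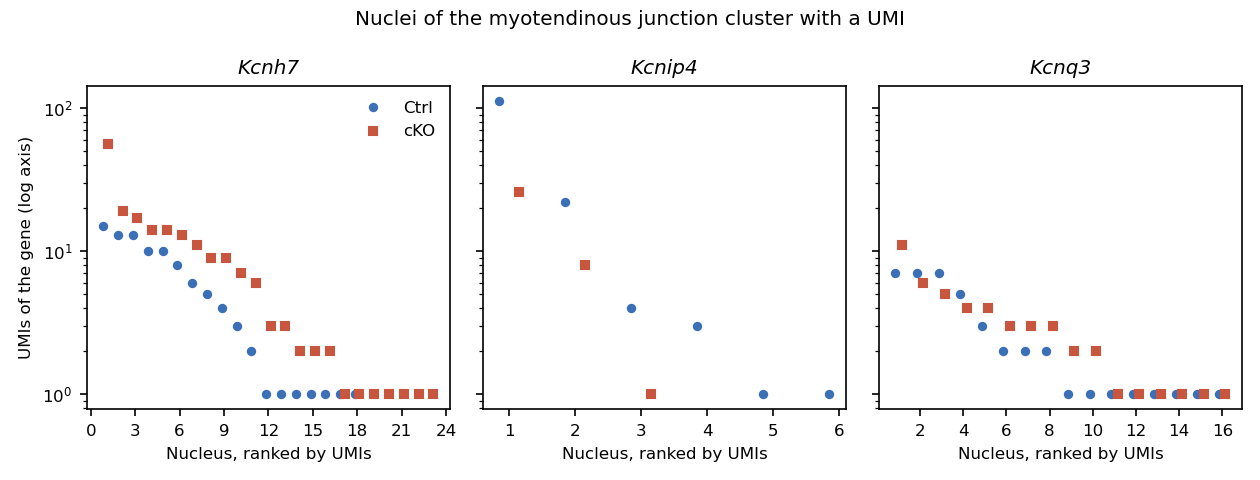
UMIs of *Kcnh7*, *Kcnip4* and *Kcnq3* (vertical log axis) in each myotendinous junction-like nucleus that held at least 1, ranked from most to least (horizontal axis), blue circles for Ctrl and red squares for cKO. *Kcnh7* is spread over 18 Ctrl and 23 cKO nuclei, while 1 Ctrl nucleus holds 113 UMIs of *Kcnip4*.

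Promoter windows are shown for *Kcnh7* and *Kcnt2*, the called members with the largest contrast at the myotendinous junction and in FAP-like nuclei, and for *Kcnq5* and *Kcnj12*, the members called at the neuromuscular junction, of which *Kcnj12* also had the lowest library ratio over all myonuclei. Each is the RefSeq sequence from 250 bases before to 50 bases after a transcript start, GRCm38.p6, written 5′ to 3′ on the strand of the gene, at chr2:63184238-63184537 (minus) for *Kcnh7*, chr1:21961893-21962192 (minus) for *Kcnq5*, chr11:61065554-61065853 (plus) for *Kcnj12* and chr1:140245468-140245767 (plus) for *Kcnt2*. Capitals mark 2 motifs searched on both strands, the N-box CCGGAA known from synaptic genes and the E-box CANNTG bound by myogenic factors.
Kcnh7: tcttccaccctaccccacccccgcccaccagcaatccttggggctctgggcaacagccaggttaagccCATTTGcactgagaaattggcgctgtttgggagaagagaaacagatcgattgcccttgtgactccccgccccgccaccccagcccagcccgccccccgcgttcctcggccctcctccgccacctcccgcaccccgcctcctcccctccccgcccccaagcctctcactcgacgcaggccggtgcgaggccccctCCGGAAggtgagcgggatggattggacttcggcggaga
Kcnq5: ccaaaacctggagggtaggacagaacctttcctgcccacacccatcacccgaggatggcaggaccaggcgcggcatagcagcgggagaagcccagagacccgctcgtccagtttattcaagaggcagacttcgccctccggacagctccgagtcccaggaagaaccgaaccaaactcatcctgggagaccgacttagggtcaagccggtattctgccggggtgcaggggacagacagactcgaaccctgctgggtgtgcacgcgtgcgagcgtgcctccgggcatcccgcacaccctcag
Kcnj12: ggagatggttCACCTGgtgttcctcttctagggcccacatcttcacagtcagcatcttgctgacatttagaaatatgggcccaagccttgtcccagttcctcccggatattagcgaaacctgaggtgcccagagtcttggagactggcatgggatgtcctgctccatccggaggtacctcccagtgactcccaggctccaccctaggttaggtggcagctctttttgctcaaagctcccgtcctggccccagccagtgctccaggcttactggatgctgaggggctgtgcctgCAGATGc
Kcnt2: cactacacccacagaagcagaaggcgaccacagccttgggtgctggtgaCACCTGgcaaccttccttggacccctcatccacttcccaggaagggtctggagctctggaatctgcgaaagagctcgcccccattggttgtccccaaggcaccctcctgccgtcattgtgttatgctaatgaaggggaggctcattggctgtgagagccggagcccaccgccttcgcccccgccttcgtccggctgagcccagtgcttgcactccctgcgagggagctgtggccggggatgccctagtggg
The *Kcnh7* window held 1 N-box and 1 E-box, the *Kcnj12* window 2 E-boxes, the *Kcnt2* window 1 E-box and the *Kcnq5* window neither. RefSeq windows were found for 72 of the 99 members, and 8.25% of their 97 windows held the N-box and 73.2% the E-box, against 14.9% and 72.3% of all 32851 windows. A match describes letters and not a bound site. The start used for *Kcnj12* lies 43240 bases from the GENCODE gene start, and that of *Kcnt2* 440 bases from it.

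At the neuromuscular junction, 2 of 6 members, *Kcnq5* and *Kcnj12*, were at least 2-fold above all other nuclei in both libraries, against 7.45% of genes, and 0 of 7 were lower (1.89%). *Kcnq5* (chromosome 1, 21398403 to 21961942, minus strand, mm10) had 2937 CPM in Ctrl (2609 to 3295) against 3312 in cKO (2944 to 3712), 2.67 (2.37 to 3.00) times and 4.06 (3.60 to 4.57) times the other nuclei. It was present in 37 of 37 Ctrl and 34 of 39 cKO junction nuclei. The library ratio of *Kcnq5* at this junction was 1.13 (0.956 to 1.33), while in *Myh4*-, *Myh1*- and *Myh2*-dominant nuclei it was 0.852, 0.689 and 0.628.

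*Kcnj12* had 242 CPM in Ctrl (155 to 360.4, 24 UMIs) against 101 in cKO (46.2 to 192, 9 UMIs) at the neuromuscular junction, 2.98 (1.90 to 4.47) times and 3.06 (1.38 to 5.91) times the other nuclei. When nuclei were assigned to this class by their marker UMIs alone, which gave 338 Ctrl and 188 cKO nuclei, neither gene was called, with log2 folds of 1.02 and 0.69 for *Kcnq5* in Ctrl and cKO. The 11 markers of this junction summed to 4159 CPM in the Ctrl and 5096 in the cKO class.

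FAPs are the fibroblast-like stromal cells of muscle. In FAP-like nuclei 6 of 18 members (33.3%) were at least 2-fold higher than in all other nuclei in both libraries, a share not far above the 25.9% of all genes, and 5 of 18 were lower (*Kcnma1*, *Kcnn2*, *Kcnj12*, *Kcnj2* and *Kcnh7*; 6.67%). With doublets kept 2 members were lower, *Kcnh7* and *Kcnip4*. *Kcnt2*, which encodes the sodium-activated channel Slick (chromosome 1, 140246158 to 140612067, plus strand, mm10), had 275 CPM in Ctrl against 228 in cKO, 38.1 (28.1 to 52.2) times and 66.7 (40.5 to 113) times the other nuclei. It was found in 75 of 291 Ctrl and 35 of 139 cKO FAP-like nuclei, against 26 of 2880 and 12 of 3215 myonuclei. *Kcnt2* was also found in 8 of 22 Ctrl and 3 of 13 cKO satellite cell-like nuclei, so it was not particular to FAP-like nuclei. After each nucleus was thinned to 500 UMIs, 13.7% of Ctrl and 14.4% of cKO FAP-like nuclei held *Kcnt2*, against 0.174% and 0.187% of myonuclei, at median depths of 1331 and 1265 UMIs in FAP-like nuclei and 2142 and 1655 in myonuclei before thinning. *Kcnc2*, the Kv3.2 gene, had 105 CPM in Ctrl against 165 in cKO, 25.3 (16.3 to 39.7) times and 34.0 (20.9 to 55.5) times the other nuclei.

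The leak channel genes *Kcnk2* (TREK-1, opened by stretch) and *Kcnk5* (TASK-2) were also higher in FAP-like nuclei. *Kcnk2* had 58.1 CPM in Ctrl (31 UMIs) against 21.1 in cKO (5 UMIs), and *Kcnk5* had 24.4 (13 UMIs) against 46.5 (11 UMIs). *Kcnb2*, the Kv2.2 gene, had 9.37 CPM (5 UMIs) against 50.7 (12 UMIs), and *Kcnab1* had 80.6 against 46.5, 2.98 (2.10 to 4.14) times and 2.81 (1.37 to 5.22) times the other nuclei. *Kcnd3* had 58.1 CPM in Ctrl (31 UMIs) against 4.23 in cKO (1 UMI), a ratio of 0.0728 (0.00179 to 0.437) from too few UMIs to be called. These Ctrl UMIs lay in 25 of 291 FAP-like nuclei.

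Of 7 members with at least 50 UMIs in FAP-like nuclei, 0 were 2-fold apart between libraries, where 0.925% of genes were higher and 3.42% lower in cKO. The *Kcnt2* ratio there was 0.829 (0.595 to 1.14). Over all nuclei of the tissue, by contrast, 5 of 29 members were lower in cKO (all genes 6.15%), and 1 of 29 was higher (*Kcnh7*; 2.58%). Among the lower ones were *Kcnt2* and *Kcnk2*, both called higher in FAP-like nuclei. FAP-like nuclei were 291 of 3526 in Ctrl and 139 of 3595 in cKO. Fewer nuclei of a type and less RNA per nucleus cannot be told apart in a level over all nuclei.

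The vascular classes were small. In endothelial-like nuclei 3 of 11 members were called higher, *Kcnq1* and *Kcnu1* among them, against 17.5% of genes, and 1 of 7 lower (*Kcnj12*; 2.16%). *Kcnq1*, best known for the slow delayed rectifier of the heart, had 77.3 CPM in Ctrl (15 UMIs) against 65.8 in cKO (5 UMIs), 4.91 (2.68 to 8.39) times and 3.96 (1.26 to 9.51) times the other nuclei. *Kcnu1* had 51.5 CPM (10 UMIs) against 39.5 (3 UMIs). Among nuclei with 1000 UMIs or more *Kcnq1* alone was still called.

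In smooth muscle or pericyte-like nuclei 2 of 6 members were higher, *Kcnab1* among them, against 15.6% of genes, and 0 of 4 lower (3.59%). *Kcnab1* had 178 CPM in Ctrl (17 UMIs) against 43.3 in cKO (1 UMI). *Kcnmb1*, which encodes the smooth muscle beta subunit of the BK channel, had 0 UMIs, which allows a level of up to 0.411 CPM in Ctrl and 0.509 in cKO over all nuclei. Within the smooth muscle or pericyte-like class, which held only 95695 Ctrl and 23114 cKO UMIs, 0 UMIs allow a much higher level. *Kcnmb1* overlaps *Kcnip1* on the other strand.

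*Kcnq1ot1*, an imprinted noncoding RNA transcribed against *Kcnq1*, is a member by name only. It had 749.6 CPM in Ctrl against 627 in cKO myonuclei, a ratio of 0.837 (0.803 to 0.871), which was 0.952 (0.907 to 0.999) with the classes mixed alike. Its level was higher in *Myh4*-dominant nuclei (791 against 744 CPM) than in *Myh2*-dominant nuclei (489 against 465 CPM). The paper reports default Cell Ranger settings and does not name the handling of strand. *Kcnq1* and *Kcnq1ot1* overlap on opposite strands. Genes are also annotated opposite *Kcnma1*, *Kcnq5*, *Kcnn2*, *Kcnh7*, *Kcnip4*, *Kcnt2*, *Kcnab1*, *Kcnq3*, *Kcnd3*, *Kcnj3*, *Kcnk2*, *Kcnn1*, *Kcnip1*, *Kcnh1*, *Kcnj13* and *Kcng2*, among others. Whether reads of the opposite strand entered the counts of these members was not tested. *Kcnk4* overlaps *Catsperz* on the same strand.

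Other genes of the membrane potential were compared from a list of 31 partners, pumps and channels, 21 of which had at least 50 UMIs in myonuclei. Of these, 1 of 21 was at least 2-fold higher in cKO (all genes 3.27%), *Lrrc52*, which encodes an auxiliary subunit of BK-type channels, and 0 were 2-fold lower (2.93%). *Lrrc52* had 12.3 CPM in Ctrl against 31.0 in cKO myonuclei. By class *Lrrc52* had 148 (6 UMIs) against 95.4 CPM in *Myh7*-dominant, 96.9 against 62.0 in *Myh2*-dominant, 27.9 against 18.2 in *Myh1*-dominant and 2.12 against 3.83 in *Myh4*-dominant nuclei, the same order of classes as *Kcnma1*, with the cKO value the lower one in 3 of the 4 classes. The sodium pump gene *Atp1b1* was likewise called higher in *Myh2*-dominant nuclei, with 502 against 233 CPM, and was the 1 of 16 genes of this list called lower in cKO within that class, with a ratio of 0.465 (0.375 to 0.575) (all genes 3.14%). Within *Myh7*-dominant nuclei 2 of 14 were called higher in cKO (all genes 12.7%), *Lrrc38*, another auxiliary subunit of BK channels, and *Slc12a2*, a sodium, potassium and chloride cotransporter, from 1 and 2 Ctrl UMIs, with ratios of 4.06 (0.702 to 163) and 2.03 (0.538 to 17.1), intervals that include 1. The chloride channel gene *Clcn1* and the sodium channel gene *Scn4a*, which set fiber excitability beside the potassium channels, had ratios of 0.968 and 1.18.

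At the junctions, 2 of 13 genes of this list were called higher at the neuromuscular junction (all genes 7.45%), among them *Ank3*, which encodes the membrane anchor ankyrin-G, with 5410.1 against 7072 CPM. At the myotendinous junction 2 of 17 were (4.13%), *Atp1b4*, with 228 against 261 CPM, and *Abcc8*, with 26.9 against 21.1. *Abcc9*, whose product pairs with the channels of *Kcnj8* and *Kcnj11*, had 1003 CPM in Ctrl against 1644 in cKO smooth muscle or pericyte-like nuclei and 282 against 274 in myonuclei, while those pore genes had few UMIs in either.

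The 18 members with 10 to 49 UMIs had between 10 and 48, too few for a ratio. Most UMIs lay in myonuclei for the SK1 gene *Kcnn1* (32 of 39), *Kcnh8* (21 of 25), *Kcnj6* (19 of 21, 7 of them at the myotendinous junction), *Kcnk4* (19 of 20) and *Kcnmb2* (18 of 21). *Kcnf1*, a modifier subunit, had all of its 17 UMIs in myonuclei, and its call in *Myh4*-dominant nuclei rested on 13 Ctrl and 2 cKO UMIs, with 0 in other cKO myonuclei. In FAP-like nuclei lay 7 of 11 UMIs of *Kcna2* and 9 of 23 of *Kcnip3*. Of the rest of this range, *Kcnd1*, *Kcng2*, *Kcnh1*, *Kcnip1*, *Kcnj13*, *Kcnk13*, *Kcnrg* and *Kcns3* had 10 to 48 UMIs with none called in a junctional, FAP or vascular class. Of the 36 members with 1 to 9 UMIs, *Kcng1* had 5 of its 6 UMIs and *Kcnk6* 4 of its 8 in FAP-like nuclei, and *Kcnn4*, the SK4 gene, *Kcnv2*, *Kcnk1* and *Kcnh3* had all 6 of theirs in myonuclei. The others of this range were *Kcnh5*, *Kcnk12*, *Kcnh2*, *Kcnh6*, *Kcnt1*, *Kcna6*, *Kcnab2*, *Kcng3*, *Kcnk3*, *Kcnh4*, *Kcnj16*, *Kcnj14*, *Kcnmb4*, *Kcna1*, *Kcne1*, *Kcnmb3*, *Kcnmb4os1*, *Kcns1*, *Kcna10*, *Kcna5*, *Kcnab3*, *Kcnd3os*, *Kcnj15*, *Kcnj4*, *Kcnk16*, *Kcnk18*, *Kcnk7* and *Kcnmb4os2*, beside *Kcnj8* and *Kcnj11* above. The 16 members with no UMI were *Kcna3*, *Kcna4*, *Kcnab3os*, *Kcne1l*, *Kcne2*, *Kcne3*, *Kcne4*, *Kcnj1*, *Kcnj10*, *Kcnj5*, *Kcnj9*, *Kcnk15*, *Kcnk9*, *Kcnmb1*, *Kcns2* and *Kcnv1*.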

How the data were processed

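Nuclei were isolated from 3 pooled GP muscles per library and profiled by droplet single-nucleus RNA-Seq with 3′ libraries. The deposited values are raw UMI counts per gene and barcode, made by the authors with Cell Ranger 3.1.0 on mm10 (submitters' processing notes) and not normalized. The paper reports default settings for this step and does not name counting by strand, which was not tested here. Every deposited column of values was matched to its library.

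The 3863 Ctrl and 3994 cKO barcodes held 10410316 and 8446070 UMIs. Nuclei with at least 100 genes, at least 500 UMIs and at most 10% mitochondrial UMIs were kept (3833 and 3908). Scrublet, as built into Scanpy 1.11.5, marked 0 doublets by its automatic threshold, so the 8% with the highest scores were removed (307 and 313), which left 8965740 and 7244263 UMIs. Nuclei were clustered with Seurat 5.3.0 and sctransform 0.4.2 (R 4.3.3) on 2979 features from which 21 *Kcn* genes had been taken out, and clusters were named from fixed markers. A cluster led by mitochondrial genes, with 111 and 128 nuclei, was left out of the myonuclei. Cell types are thus rebuilt and may differ from those of the study.

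Counts were summed per library and class and scaled to CPM (Python 3.11.15, pandas 2.3.3, SciPy 1.17.1). Values needed at least 10 UMIs, ratios were called at 2-fold with at least 50 UMIs, and genes named with values were the members with at least 50 UMIs, those called between libraries and those called in a junctional, FAP or vascular class, apart from a few genes that are counted but not reported here. Members, gene lists and comparisons were chosen with earlier results of these data known. With 1 library per condition no test was run. Intervals cover counting error only.

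Alternatives to the scaling, depth, doublet, clustering, myosin and class choices were computed for each result. Promoter windows came from RefSeq on GRCm38.p6. The ratios and their intervals were also computed on simulated independent Poisson counts, the model that the intervals assume. UMIs gathered in single nuclei were not simulated, so that run cannot show how the intervals fare on the real counts.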

Additional observations from a re-analysis of the deposited data

How the results depend on the processing

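No paired analysis was possible because each condition had 1 library and both carry the replicate number 1. The count of *Kcn* genes at least 2-fold higher in cKO over all myonuclei, 0 as reported, was 1 with *Malat1* and mitochondrial genes left out of the total, relative to the median of all genes, with every nucleus weighted equally, in nuclei of 1000 UMIs or more, with the 4 myosin classes mixed alike and with at least 10 UMIs per gene. Leaving out *Malat1* and mitochondrial genes raised every log2 ratio over all myonuclei by 0.10 and those within *Myh7*-, *Myh2*-, *Myh1*- and *Myh4*-dominant nuclei by 0.22, 0.18, 0.11 and 0.04. The count of genes at least 2-fold lower, 4 as reported, was 1 with every nucleus weighted equally (the mean over nuclei of each one's CPM), 1 after thinning to 500 UMIs, 2 without the junction clusters, 2 with the classes mixed alike and 7 with at least 10 UMIs per gene. *Kcnip4* turned from lower to higher with nuclei weighted equally (log2 ratio 0.13) and after thinning (0.13).

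Without the junction clusters, the count lower in cKO within *Myh2*-dominant nuclei went from 0 to 1 (*Kcnq3*). Without the 1 Ctrl nucleus that held 13 of its 33 UMIs, the *Kcnq3* ratio was 0.609 (0.314 to 1.18). Without the leading nucleus of each library it was 0.467 (0.226 to 0.949), from 36 UMIs, too few for a call. Leaving out the junction clusters also took the count lower within *Myh4*-dominant nuclei from 3 to 1, and the count higher there from 1 to 0, where the log2 ratio of *Kcnh7* was -0.50. That count was also 0 without the nucleus with most UMIs of the gene in each library. With the main myosin at 80% or more, the count lower within *Myh1*-dominant nuclei went from 1 to 0.

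In place of the myosin classes, unsupervised clusters gave 2 genes higher in the *Myh7* class, where none was reported (*Kcnd2* and *Kcnma1*), and 2 in the *Myh1* class, where 1 was (*Kcnc1* and *Kcnn2*). The *Myh1* count was also 2 at 80%, without the junction clusters and without the nucleus with most UMIs (*Kcnc1* and *Kcnn3* in each). The count lower in the *Myh7* class, 4 as reported, was 2 with unsupervised clusters (*Kcnab1* and *Kcnj12*) and 2 at 80% (*Kcnc1* and *Kcnh7*), and that in the *Myh1* class, 1 as reported, was 2 at 80% (*Kcnip4* and *Kcnq3*) and 0 without the nucleus with most UMIs. Without the junction clusters the counts lower in the *Myh7*, *Myh2*, *Myh1* and *Myh4* classes were 3, 3, 1 and 4, with *Kcnab1* in place of *Kcnip4* in the *Myh1* class. When nuclei were assigned by marker UMIs, the count higher at the neuromuscular junction went from 2 to 0, with 338 Ctrl and 188 cKO nuclei in place of 37 and 39, and that in smooth muscle or pericyte-like nuclei from 2 to 1 (*Kcnab1*). The count lower at the neuromuscular junction, 0 as reported, was 3 by marker UMIs (*Kcnc2*, *Kcnh7* and *Kcnt2*) and 1 (*Kcnc1*) with doublets kept and with *Kcn* genes among the clustering features. The count lower at the myotendinous junction, 1 as reported, was 0 by marker UMIs and in nuclei of 1000 UMIs or more, and that in FAP-like nuclei, 5 as reported, was 2 with doublets kept. In nuclei of 1000 UMIs or more the endothelial count higher went from 3 to 1 (*Kcnq1*), with *Kcnu1* in cKO at a log2 fold of -0.23, and the smooth muscle or pericyte count higher from 2 to 1 (*Kcnab1*). With doublets kept the latter was 1, with *Kcnab1* in cKO at -0.11. The cause of these changes was not tested.

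The settings with the junction clusters or the leading nucleus left out, with the mitochondrial-led cluster counted among myonuclei and with the classes mixed alike were chosen after seeing the data. Of the 25 ratios over all myonuclei, 25 moved by less than their counting interval in nuclei of 1000 UMIs or more, with *Kcn* genes among the clustering features and with the mitochondrial-led cluster counted, 18 did after thinning, and 13 did with the 4 myosin classes mixed alike, where the other 12 moved further. Under the other settings 22 to 24 of the 25 stayed within it. Depth limits most members to their larger classes, and ratios in *Myh7*-dominant nuclei rest on 19 Ctrl nuclei.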

Other observations

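Outside the fibers, FAPs and vessels, a few members had levels that belong to no comparison above and were chosen after their values were seen. *Kcnk13*, which encodes the leak channel THIK-1 of microglia and macrophages, had 170.3 CPM in Ctrl and 325.2 in cKO immune-like nuclei, from 15 and 9 of its 48 UMIs. *Kcnq1* had 113.6 and 289.1 CPM there. *Kcnt2*, called higher in FAP-like nuclei, had 219.3 CPM in Ctrl and 299.5 in cKO satellite cell-like nuclei, from 11 and 4 UMIs. *Kcnma1* had 4120 CPM in Ctrl and 2855 in cKO tenocyte-like nuclei, a class of 55 and 10 nuclei, so its Ctrl level there lay near that of *Myh2*-dominant nuclei.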
